A study of Mus musculus with 6 samples.

Results

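Collagen prolyl and lysyl hydroxylases are the enzymes of the endoplasmic reticulum that modify newly made collagen chains before secretion, and 10 of their genes were read in RNA-seq of cardiac fibroblasts after myocardial infarction (MI). The members were taken by name from the 34745 genes listed: *P4ha1*, *P4ha2*, *P4ha3*, *P4hb*, *Plod1*, *Plod2*, *Plod3*, *P3h1*, *P3h2* and *P3h3*. All 10 were found once each, and all 10 passed the filter on low counts. The libraries came from male mice of 8 to 10 weeks on a C57BL/6 background. MI had been induced in all mice by tying off the left anterior descending artery, and fibroblasts were isolated from the left ventricle at 7 days after MI. There were 3 libraries labelled KO, from mice that carry a CRISPR/Cas9 deletion of the JmjC region of *Kdm5b* with a frameshift, and 3 labelled WT, from littermates without it. Whether each library is 1 mouse or a pool is not stated, so p-values measure the spread between libraries.

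Prolyl 4-hydroxylase joins a catalytic alpha subunit (*P4ha1*, *P4ha2* or *P4ha3*) to the beta subunit *P4hb*, which is also a protein disulfide isomerase. The 4-hydroxyproline it makes keeps the collagen triple helix stable at body temperature. The lysyl hydroxylases (*Plod1* to *Plod3*) make the hydroxylysine to which sugars are attached and from which lysyl oxidases build stable crosslinks, and *Plod2* acts on the short ends of the chains and is known for the crosslinks of scar tissue. The prolyl 3-hydroxylases (*P3h1* to *P3h3*) modify few prolines, and *P3h1* works in a complex with *Crtap* and *Ppib*. The catalytic enzymes use oxygen, iron, 2-oxoglutarate and vitamin C, and genes for several of them, *P4ha1*, *P4ha2* and *Plod2* among them, are known to be induced by hypoxia.

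Of the 10 members, 5 fell in the libraries labelled KO and 0 rose at an adjusted p under 0.05 in edgeR's quasi-likelihood test over all 14084 genes tested, where 12.5% of all genes were called lower and 17.7% higher. The median log2 fold change of the members was -0.26, against -0.02 over all genes tested. *P4ha1* fell by 17.3% and *Plod2* fell by 17.2%, and these calls held in all 14 alternatives other than the marker scalings. *P4ha2*, *Plod3* and *P3h3* also fell, but these calls held in only 3, 7 and 8 of the 14 alternatives. With 1 library left out the count of 5 dropped to between 2 and 4, and only 2 or 3 of the original 5 were kept. The beta subunit *P4hb* differed by -1.04% and did not pass the test, and *Plod1* was the only member above 0. Collagen I and III chains fell too. All directions here are relative to TMM, edgeR's scaling that takes most genes as unchanged, and 7 of the 9 members below 0 lay above it when libraries were scaled on fibroblast markers. In bulk libraries fewer cells of a type and less RNA per cell cannot be told apart.

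For 8 of the 10 genes the RefSeq promoter table holds a window (build GRCm38.p6, 250 bases before to 50 after an annotated start). The start used for *P4ha2* lies downstream of the first base of the gene model given further on, so that window lies within the model. The stretches below belong to a member that fell in every alternative of test or filter (*P4ha1*), its less abundant isoenzyme (*P4ha2*), the beta subunit (*P4hb*) and the member above 0 (*Plod1*), so that a reader can set the start regions beside their values. Capitals mark ACGTG or GCGTG on either strand, the core letters of the hypoxia response element. Each runs 5′ to 3′ on the strand of its gene.
P4ha1, chr10:59323046-59323345, plus strand: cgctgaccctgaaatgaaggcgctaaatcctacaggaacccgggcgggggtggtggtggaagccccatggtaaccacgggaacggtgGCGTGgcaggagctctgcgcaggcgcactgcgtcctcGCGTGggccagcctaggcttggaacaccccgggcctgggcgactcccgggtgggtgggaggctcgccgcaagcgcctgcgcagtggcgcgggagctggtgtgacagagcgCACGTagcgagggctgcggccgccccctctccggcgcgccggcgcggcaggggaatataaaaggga
P4ha2, chr11:54100674-54100973, plus strand: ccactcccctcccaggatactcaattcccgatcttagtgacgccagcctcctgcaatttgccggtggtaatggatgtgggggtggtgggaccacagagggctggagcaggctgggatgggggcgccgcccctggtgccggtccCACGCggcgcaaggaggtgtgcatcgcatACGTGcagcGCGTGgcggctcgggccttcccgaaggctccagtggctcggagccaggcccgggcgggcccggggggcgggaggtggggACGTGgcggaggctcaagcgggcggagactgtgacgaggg
P4hb, chr11:120573204-120573503, minus strand: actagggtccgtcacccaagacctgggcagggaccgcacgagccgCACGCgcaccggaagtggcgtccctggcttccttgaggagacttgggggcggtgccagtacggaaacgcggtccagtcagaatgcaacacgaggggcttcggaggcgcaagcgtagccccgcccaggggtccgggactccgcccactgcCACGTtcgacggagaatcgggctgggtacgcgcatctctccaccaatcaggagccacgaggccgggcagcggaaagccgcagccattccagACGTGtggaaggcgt
Plod1, chr4:147936727-147937026, minus strand: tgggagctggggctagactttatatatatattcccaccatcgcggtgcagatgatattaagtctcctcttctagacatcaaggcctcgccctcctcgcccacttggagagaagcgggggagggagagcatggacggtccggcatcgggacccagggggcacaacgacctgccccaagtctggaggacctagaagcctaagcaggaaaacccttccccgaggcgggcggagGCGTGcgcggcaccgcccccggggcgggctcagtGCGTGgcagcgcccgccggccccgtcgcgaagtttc
These letters occurred 3 times for *P4ha1*, 4 times for *P4ha2*, 3 times for *P4hb* and 2 times for *Plod1*. The windows of *P4ha3* and *P3h3* held 0, that of *Plod3* held 4, and both windows of *P3h1* held 2. Of 32851 promoter windows of this length in the table, 43.8% held at least 1 match and 8.93% held 3 or more. Whether these letters relate to the changes was not tested. A match describes the letters and is not evidence that a factor binds there.

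Levels between genes were compared as deposited FPKM (fragments per kilobase of gene length, scaled to the library's total), since this unit accounts for gene length. *P4hb* was the most abundant member, with a mean of 377 FPKM in WT and 382 FPKM in KO. *P4ha1* followed with 78.8 FPKM in WT and 66.7 FPKM in KO, and *Plod2* with 75.6 and 64.1 FPKM. In WT the next were *Plod3* (39.2 FPKM), *P3h1* (22.9), *P4ha2* (18.2), *Plod1* (16.7) and *P3h3* (11.5), and *P4ha3* (5.94) and *P3h2* (3.67) were lowest. The ranges of neighbours in this order did not overlap in WT, although *P4ha1* (lowest 78.1 FPKM) and *Plod2* (highest 78.0 FPKM) nearly met. In KO, *P4ha1* and *Plod2* overlapped, and *P3h1* (15.86 to 23.76 FPKM) overlapped both *Plod1* and *P4ha2* (15.81 to 17.08 FPKM). *Plod1* stood above *P4ha2* in KO, the reverse of their order in WT.

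**Figure D1:**
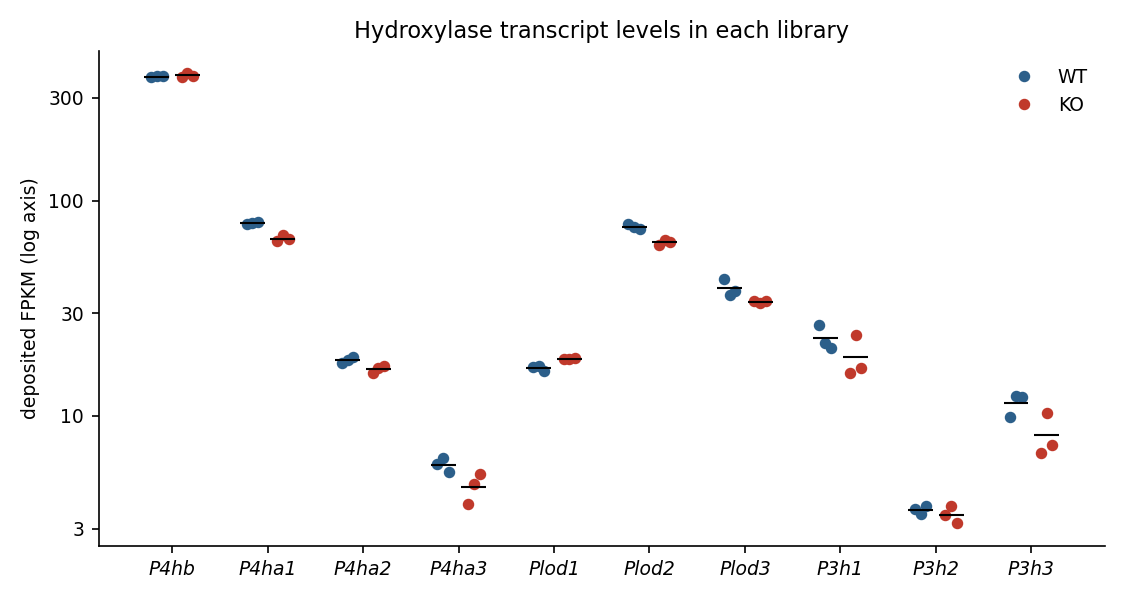
Deposited FPKM of the 10 hydroxylase genes on a log axis, with 1 point for each library and a black bar for the mean of 3 libraries. *P4hb* means are 377 FPKM in WT (blue) and 382 FPKM in KO (red), and the 3 KO points of *P4ha1*, *P4ha2*, *P4ha3*, *Plod2* and *Plod3* lie below the WT points.

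The catalytic alpha subunits come first. *P4ha1* (ENSMUSG00000019916, chr10:59323296-59373304, plus strand) read 516, 525 and 524 TMM-normalized CPM (counts scaled to a common library total) in WT. In KO it read 416, 449 and 429 CPM. The highest KO library lay below the lowest WT library, and the spread within each label was small beside the gap. EdgeR put the log2 fold change at -0.27 ± 0.04 (standard error) with an adjusted p of 0.00226, and over the 14 alternatives without marker scaling this p ran from 0.000191 to 0.0126.

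*P4ha2* (chr11:54100095-54131665, plus strand), the type II alpha subunit, had 151, 157 and 161 CPM in WT and 132, 142 and 144 CPM in KO. The labels did not overlap, though KO replicate 3 and WT replicate 1 were close. In edgeR it fell by 0.17 ± 0.05 on the log2 scale (adjusted p = 0.0441). This call was lost in every fit that left out 1 of the 6 libraries (adjusted p from 0.0594 to 0.128), while 3 of the 14 alternatives kept it.

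*P4ha3* (chr7:100285520-100319699, plus strand), the least abundant alpha subunit, had 27.4, 29.4 and 25.1 CPM in WT and 17.4, 21.8 and 24.0 CPM in KO. KO was below WT in every library, but KO replicate 3 lay close to WT replicate 3 and the KO libraries were far apart. At -0.37 on the log2 scale its change did not pass the threshold (adjusted p = 0.0556, 95% interval -0.65 to -0.08, edgeR). It passed without KO replicate 3 (-0.47, adjusted p = 0.0375) and in 3 other alternatives, while without KO replicate 1 the change shrank to -0.25 (adjusted p = 0.126), and its adjusted p over all 14 ran from 0.0375 to 0.153.

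*P4hb* (chr11:120560298-120573253, minus strand) had 1429, 1455 and 1444 CPM in WT and 1400, 1468 and 1415 CPM in KO. The libraries overlapped fully, and the label means of 1443 and 1428 CPM differed by less than the SD of 35.5 CPM within KO. Its log2 fold change was -0.02 (adjusted p = 0.797, edgeR), with a 95% interval of the change from -6.87% to 5.15%. The alpha subunits together stood lower against this partner. The log2 ratio of summed *P4ha1* to *P4ha3* FPKM to *P4hb* FPKM was -1.88, -1.87 and -1.87 in WT and -2.16, -2.11 and -2.09 in KO. The difference was -0.25, a value that library scaling cannot change, and the labels did not overlap. By exact permutation (two-sided) p was 0.1, or 0.2 with Benjamini-Hochberg adjustment over 6 ratios, and 3 libraries against 3 cannot give less than 0.1.

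Within the alpha subunits *P4ha1* supplied 76.6% ± 0.234 of FPKM in WT and 75.8% ± 0.978 in KO (SD, n = 3), and these libraries overlapped. The share of *P4ha2* was 17.3%, 17.5% and 18.1% in WT and 18.7%, 18.5% and 19.2% in KO. These did not overlap, with a difference of 1.17 percentage points (exact two-sided permutation test, p = 0.1, adjusted over 9 shares 0.3). The share of *P4ha3* overlapped between the labels.

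The lysyl hydroxylases come next. *Plod2* (chr9:92542223-92608428, plus strand), the telopeptide enzyme, had 584, 566 and 553 CPM in WT and 454, 487 and 469 CPM in KO. All KO libraries were below all WT libraries. Its log2 fold change matched that of *P4ha1* at -0.27 ± 0.04 (adjusted p = 0.00271, edgeR; 0.000261 to 0.0132 over the 14 alternatives).

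*Plod1* (chr4:147909753-147936767, minus strand), which acts on lysines within the helix, had 137, 139 and 132 CPM in WT and 146, 147 and 148 CPM in KO. All KO libraries were above all WT libraries, and the KO values lay within an SD of 1.2 CPM. A log2 fold change of 0.11 ± 0.05 (95% interval 0.01 to 0.22) did not pass the threshold (adjusted p = 0.102 from edgeR). It passed in 3 of the 14 alternatives, with library size in place of TMM (0.15, adjusted p = 0.0429) and in both limma fits, and its adjusted p over all 14 ran from 0.0429 to 0.296.

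*Plod3* (chr5:136987019-136996648, plus strand), whose protein also adds sugars to hydroxylysine, had 309, 260 and 270 CPM in WT and 237, 235 and 239 CPM in KO. The KO libraries were close together and below WT, while WT replicate 1 stood well above the other two. It fell by 0.24 ± 0.07 on the log2 scale (adjusted p = 0.0266, edgeR), and without WT replicate 1 the log2 fold change was -0.16 (adjusted p = 0.0524). The call was also lost without KO replicate 1 (0.0638), KO replicate 2 (0.0681) or KO replicate 3 (0.0740), and held in 7 of the 14 alternatives. *Plod3* shares 1003 bases with *Znhit1* on the other strand, which had 362 to 457 counts per library against 2899 to 4409 for *Plod3*. The libraries were stranded, but whether counting used strand is not given in the sources used here.

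The shares within the family follow from these values without any library scaling. *Plod1* supplied 12.2%, 13.2% and 12.6% of *Plod* FPKM in WT and 15.99%, 15.6% and 15.9% in KO. *Plod2* supplied 56.5%, 58.5% and 57.7% in WT and 54.2%, 56.0% and 54.8% in KO. The difference was 3.14 percentage points for *Plod1* and -2.56 for *Plod2*, in both cases with no overlap of the libraries (exact two-sided permutation test, p = 0.1 each, adjusted over 9 shares 0.3). The share of *Plod3*, 29.8% in WT and 29.2% in KO, overlapped.

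The prolyl 3-hydroxylases *P3h1* and *P3h3* varied most between libraries of a label. *P3h1* (chr4:119232915-119248975, plus strand), the enzyme of collagen I and the partner of *Crtap*, had 299, 249 and 235 CPM in WT. In KO it had 176, 266 and 186 CPM. KO replicate 2 lay among the WT libraries, so the labels overlapped. With a log2 fold change of -0.32 ± 0.16 it did not pass (adjusted p = 0.161, 95% interval -0.68 to 0.04, edgeR), and without KO replicate 2 the value was -0.52 (adjusted p = 0.00917), the only 1 of 14 alternatives in which it passed. Without KO replicate 1 it shrank to -0.20 (adjusted p = 0.388) and without WT replicate 1 to -0.21 (adjusted p = 0.400).

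*P3h3* (chr6:124841089-124857752, minus strand) had 75.2, 95.5 and 93.5 CPM in WT and 50.03, 77.7 and 54.7 CPM in KO. KO replicate 2 again stood above the other KO libraries, and just above WT replicate 1. In both genes KO replicate 2 lay above its label's mean, by 0.37 for *P3h1* and 0.38 for *P3h3* on the log2 CPM scale, while for *P4ha1* and *Plod2* it lay above by 0.06 and 0.05. The fitted change of *P3h3* was -0.53 ± 0.16 on the log2 scale (adjusted p = 0.0397, edgeR), the largest among the members. This call was lost without KO replicate 1, KO replicate 3, WT replicate 2 or WT replicate 3 (adjusted p from 0.107 to 0.125), was -0.74 without KO replicate 2, and held in 8 of the 14 alternatives.

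*P3h2* (chr16:25959288-26105784, minus strand), known as the prolyl 3-hydroxylase of basement membrane collagen, had 15.8, 15.1 and 16.4 CPM in WT and 14.5, 16.1 and 13.4 CPM in KO. The libraries overlapped. Its log2 fold change of -0.11 did not pass (adjusted p = 0.475, edgeR), and the 95% interval of the change ran from -21.4% to 9.59%, at 177 to 231 counts per library. Without KO replicate 2 the value was -0.17 and without KO replicate 3 it was -0.04, neither past the threshold.

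**Figure D2:**
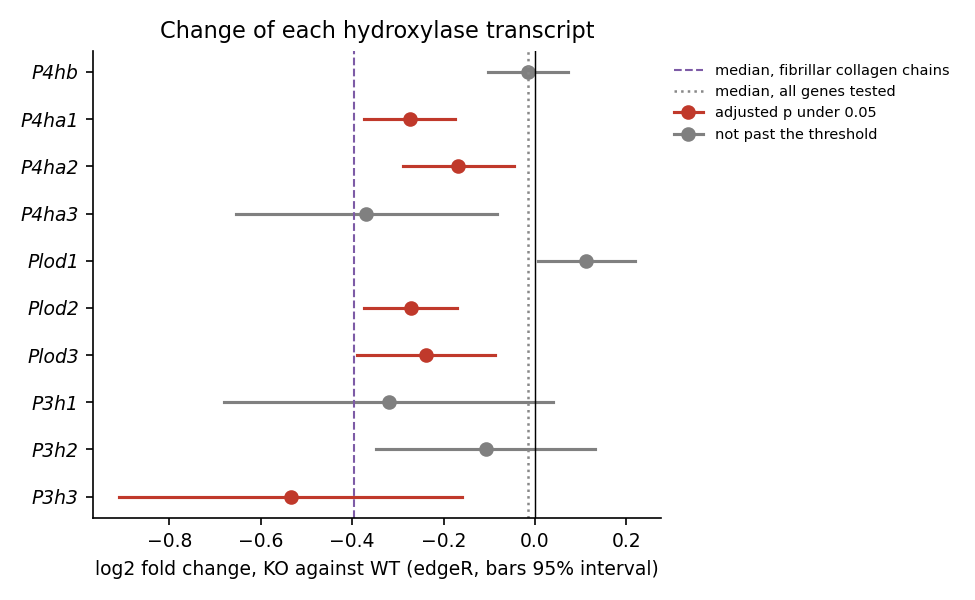
Log2 fold change of each hydroxylase gene in KO against WT from edgeR with its 95% interval, red where the adjusted p was under 0.05. *P4hb* sits at -0.02 with a narrow interval, 8 other members lie below 0, *Plod1* lies at 0.11, and the dashed line marks the median of -0.40 for fibrillar collagen chains.

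By the simpler reading of the libraries, 5 of the 10 members (*P4ha1*, *P4ha2*, *P4ha3*, *Plod2* and *Plod3*) had all KO values below all WT values, and 1 (*Plod1*) had all above. Over all genes tested these shares were 22.4% and 24.7%. The members' own pattern, the mean of their centred log2 CPM, was 0.12, 0.12 and 0.09 in WT and -0.20, 0.00 and -0.13 in KO, so KO replicate 2 was nearest to WT. Over these 6 libraries the genes of at least 10 mean FPKM most like this pattern were *Sfn* (Pearson correlation 0.995), *Marcks* (0.995) and *Tbc1d13* (0.995), out of 4133 searched. These libraries share their labels, so the values are a description.

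The substrates were read in the same libraries. *Col1a1*, the main chain of collagen I, had 2249, 2533 and 2470 FPKM in WT and 1654, 1952 and 1851 FPKM in KO, with a log2 fold change of -0.44 (adjusted p = 0.00284 from edgeR). Those of *Col1a2* and *Col3a1* were -0.38 and -0.42 (adjusted p = 0.00253 and 0.000811). Under TMM, 12.5% of all genes were called lower and 17.7% higher. Of 11 fibrillar collagen genes 8 fell and 0 rose (median -0.40), and of 6 collagen IV genes 5 fell and 0 rose (median -0.31). Scaled on fibroblast markers, these medians were -0.05 and 0.04 with 0 genes called lower in either list, where 0.469% of all genes were called lower.

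Within each library the enzymes were set against the summed FPKM of *Col1a1*, *Col1a2* and *Col3a1*. For the alpha subunits this log2 ratio was -5.12, -5.22 and -5.21 in WT and -4.95, -5.07 and -5.03 in KO. KO was higher in every library, by 0.17 on average (exact two-sided permutation test, p = 0.1, adjusted over 6 ratios 0.2). For *P4hb*, a ratio added after the values were seen, the difference was 0.42, from -3.24, -3.35 and -3.34 in WT to -2.79, -2.96 and -2.94 in KO, again without overlap (exact p = 0.1, adjusted 0.2). For *Plod1* to *Plod3* the difference was 0.22 with an overlap between WT replicate 1 at -4.68 and KO replicate 2 at -4.69 (exact p = 0.2, adjusted 0.3). For the prolyl 3-hydroxylases it was 0.05 with SDs of 0.22 in KO and 0.13 in WT, and the libraries overlapped. With 1 library left out it ran from -0.07 (without KO replicate 2, where its sign turned) to 0.13 (without KO replicate 3). For the lysyl oxidases, which act on collagen after secretion, the difference was 0.03 with overlapping libraries (exact p = 0.3, adjusted 0.36). These ratios compare summed transcripts and say nothing of hydroxylation of the protein.

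**Figure D3:**
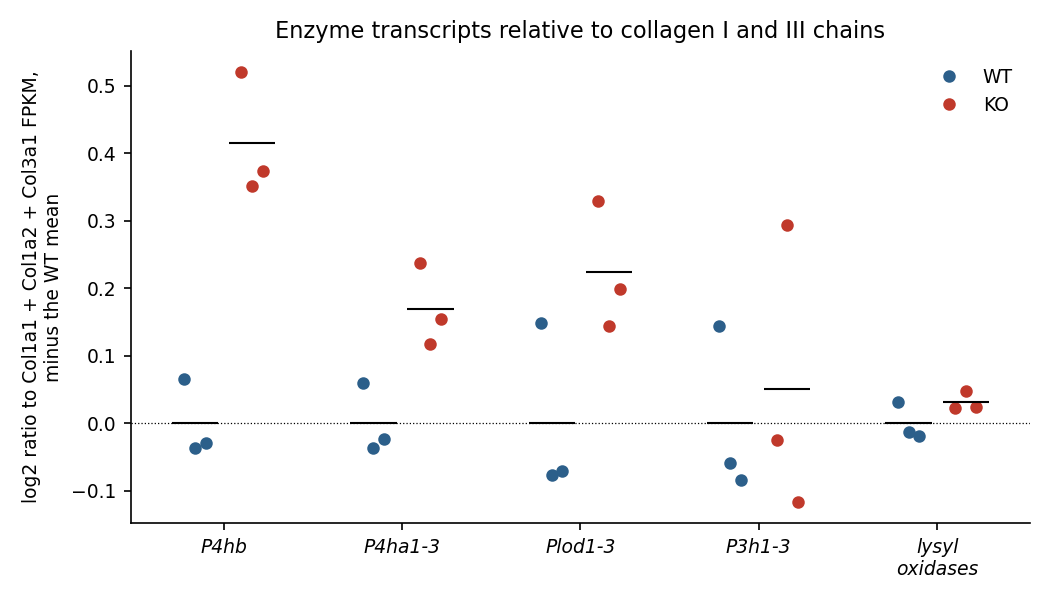
Log2 ratio of enzyme FPKM to the summed FPKM of *Col1a1*, *Col1a2* and *Col3a1* in each library, drawn relative to the WT mean of each ratio, with black bars for the mean of 3 libraries. KO (red) lies above WT (blue) in every library for *P4hb* (difference 0.42) and the alpha subunits (0.17), and the libraries overlap for the other 3 groups.

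The partners of these enzymes were read as lists, which like the members were chosen with earlier results of these data known. Of 18 genes for partners of the hydroxylases and collagen folding 16 could be tested, and 10 fell while 0 rose under TMM (median log2 fold change -0.27), where 12.5% of all genes fell. With fibroblast marker scaling 1 fell and 4 rose (median 0.07, with 51.3% of all genes called higher), and with cardiomyocyte and macrophage marker scaling 0 fell and 6 rose (61.0% of all genes called higher). In the complex of *P3h1*, *Crtap* fell (-0.42, adjusted p = 0.00188 from edgeR) from 57.9 ± 2.85 to 44.3 ± 2.48 FPKM (SD, n = 3). The cyclophilin *Ppib*, another member, was at 328 ± 3.19 FPKM in WT and 324 ± 6.67 FPKM in KO (-0.06, adjusted p = 0.330 from edgeR). *Creb3l1*, a transcription factor of collagen secretion, fell by 0.51 on the log2 scale and *Kdelr3*, a receptor that returns proteins to the endoplasmic reticulum, by 0.43, both past the threshold. *Serpinh1*, the collagen chaperone HSP47, was unsteady, with 865, 1441 and 874 FPKM in WT and 665, 932 and 1115 FPKM in KO (-0.26, adjusted p = 0.433 from edgeR). With 1 library left out its value ran from -0.44 (without KO replicate 3) to 0.02 (without WT replicate 2), and was -0.08 without KO replicate 1. Of 7 procollagen trimming genes tested 5 fell and 0 rose (median -0.44 under TMM, -0.09 with fibroblast marker scaling), led by *Pcolce* (-0.45), *Bmp1* (-0.45) and *Adamts2* (-0.44).

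Of the 5 lysyl oxidases, *Lox*, *Loxl1* and *Loxl2* fell under TMM (-0.43, -0.52 and -0.39), and *Loxl4* rose, beside 12.5% of all genes lower and 17.7% higher. With fibroblast marker scaling 1 of the 5 was called lower (median -0.05), and with cardiomyocyte and macrophage marker scaling 0 were (median 0.01), where 0.469% and 0.284% of all genes were called lower. *Loxl4* had 10.4, 10.6 and 9.84 FPKM in WT and 33.2, 26.4 and 29.0 FPKM in KO, a log2 fold change of 1.49 (adjusted p = 1.37e-05 from edgeR). Among the hydroxylase genes *P3h3* had the largest change, at -0.53. For the lysyl oxidases the choice of measure matters, since the mean of log2(FPKM + 1) over the 5 genes in place of summed FPKM gave a difference of 0.39 against the collagen chains, where *Loxl4* counts as much as *Lox*.

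*P4hb* belongs to the protein disulfide isomerases, and the rest of this group was read beside it. Of 19 other isomerases and chaperones of the endoplasmic reticulum tested, 5 rose, 2 fell and 12 did not pass, with a median of 0.05, beside 17.7% of all genes higher and 12.5% lower (15 rose and 0 fell with fibroblast marker scaling, which called 51.3% of all genes higher). *Ero1l* (also named *Ero1a*), the oxidase that recharges protein disulfide isomerase, rose from 47.4, 50.9 and 49.1 FPKM in WT to 126, 90.9 and 99.4 FPKM in KO (log2 fold change 1.07, adjusted p = 0.000256 from edgeR). *Ero1lb* rose by 0.88, *Pdia4* by 0.47 and *Hsp90b1* by 0.40, each past the threshold. *Calr* (0.07) and *Pdia3* (-0.13) did not pass.

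Prolyl hydroxylases that act outside collagen include the oxygen sensors. *Egln3*, an oxygen sensor of the hypoxia pathway and itself a hypoxia target, had 15.0, 15.95 and 15.6 FPKM in WT and 45.0, 38.3 and 43.5 FPKM in KO, a log2 fold change of 1.41 (adjusted p = 8.64e-06 from edgeR). *Egln1* (-0.02) and *Egln2* (-0.16) did not pass. Of 20 known hypoxia targets 10 rose and 3 fell, beside 17.7% of all genes higher and 12.5% lower. Their median was 0.28 (14 rose and 1 fell with fibroblast marker scaling, which called 51.3% of all genes higher). *Ldha* and *Pgk1*, both of glycolysis, rose by 0.22 and 0.37, while *Ak4* fell (-2.19) on WT values of 6.60, 7.41 and 1.55 FPKM against 0.9995, 1.07 and 1.39 FPKM in KO. The others of this list that fell, *Adm* (-0.43) and *Vegfa* (-0.41), which encode secreted vascular factors, were named after their values were seen. Of the transporters that bring in the cofactor vitamin C, *Slc23a2* rose from 6.08 ± 0.197 to 11.3 ± 2.30 FPKM (SD, n = 3; 0.85, adjusted p = 0.00180 from edgeR) and *Slc2a1*, which carries its oxidized form, by 0.42, while *Slc2a3* (-0.33) did not pass.

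**Figure D4:**
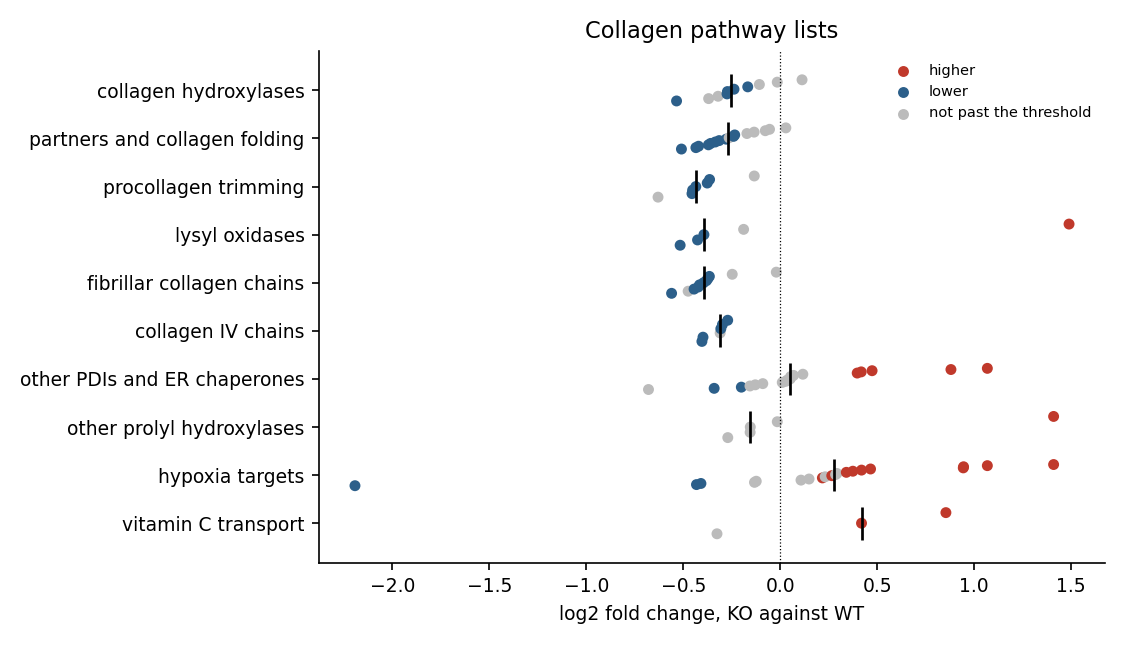
Log2 fold change in KO against WT of every gene tested in the hydroxylase list and 9 related lists, red for higher and blue for lower at an adjusted p under 0.05, grey otherwise, with black bars for list medians. Under TMM scaling the collagen lists have medians from -0.44 to -0.26, with *Loxl4* far to the right at 1.49, while chaperones (median 0.05) and hypoxia targets (median 0.28) spread to both sides of 0.

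Markers of several cell types moved with these changes under TMM, where 12.5% of all genes were called lower and 17.7% higher. Endothelial markers were called higher in 11 of 12 genes, with a summed level of 238 to 342 FPKM in KO and 46.3 to 47.6 FPKM in WT, and none of them was at 0. Fibroblast markers were present (*Dcn* 347 ± 9.93 FPKM in WT) and 9 of 13 fell while 1 rose, with summed levels of 588 to 661 FPKM in KO and 759 to 774 FPKM in WT. Cardiomyocyte markers fell in 7 of 9 (366 to 407 FPKM in KO, 488 to 514 FPKM in WT), and macrophage markers fell in 6 of 10 while 1 rose (826 to 853 FPKM against 1015 to 1097 FPKM). With fibroblast marker scaling 0 cardiomyocyte markers fell and 0 rose, and 1 macrophage marker fell and 1 rose. That scaling called 0.469% of all genes lower and 51.3% higher. Neutrophil markers rose in 2 of 3, at low summed levels (1.07 to 2.02 FPKM in WT, 5.5 to 8.7 FPKM in KO). Mural markers fell in 2 of 5 while 1 rose, and with fibroblast marker scaling 0 fell and 1 rose. Markers of cells other than fibroblasts were thus read in both labels. Lymphocyte and erythroid markers were too low to test, at most 0.191 FPKM in sum. The part of cell composition in the hydroxylase changes was not tested.

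The direction of most members depends on what the libraries are scaled to. With the libraries scaled so that 13 fibroblast markers have a median ratio of 1, the median of all genes moved up by 0.35, and 0 members were called lower and 2, *P4hb* (0.33) and *Plod1* (0.46), higher. *P4ha1* was then at 0.07 and *Plod2* at 0.07, neither past the threshold, and *P4ha3* (-0.03) and *P3h3* (-0.20) stayed below 0. With 19 cardiomyocyte and macrophage markers the median of all genes moved up by 0.41 and 6 members were called higher. Over all genes tested the fibroblast scaling called 0.469% lower and 51.3% higher, and the cardiomyocyte and macrophage scaling called 0.284% lower and 61.0% higher, so the members' share of higher calls was below or near that of all genes. The members' median minus that of all genes was -0.24 under TMM and under both marker scalings. A change of scaling adds nearly the same amount to every gene, so this sameness was fixed in advance.

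**Figure D5:**
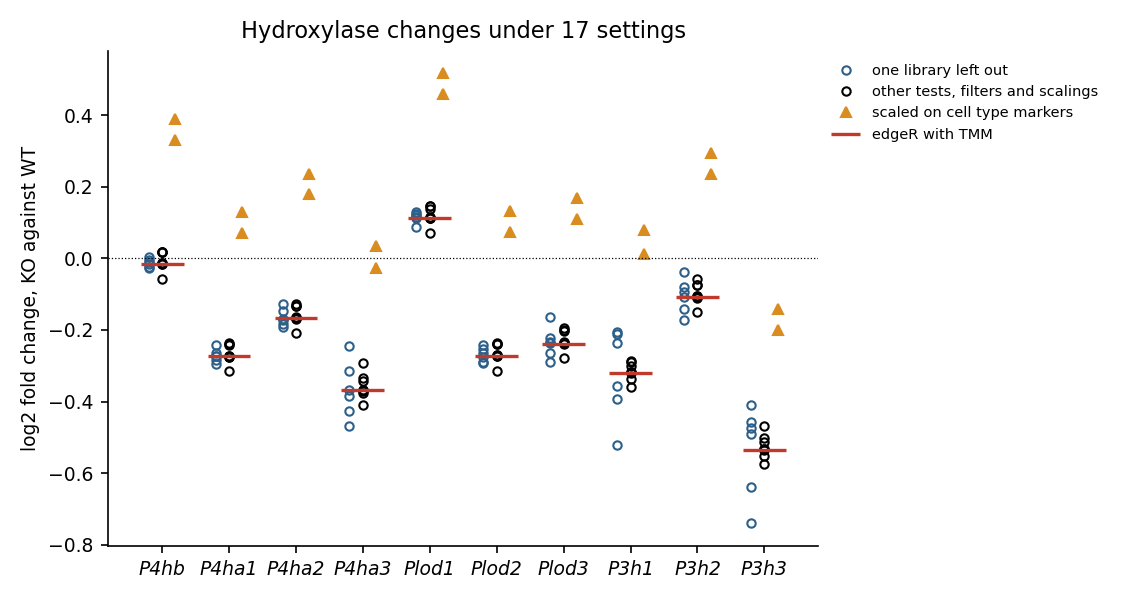
Log2 fold change of each hydroxylase gene in KO against WT with edgeR and TMM (red bar), with 1 library left out (blue circles), with other tests, filters and scalings (black circles) and with scaling on cell type markers (orange triangles). Circles stay close to the bar for *P4ha1* and *Plod2*, spread most for *P3h1* and *P3h3*, and the marker scalings lie above 0 for every member but *P3h3* and, with fibroblast markers, *P4ha3*.

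As a check of the labels, *Kdm5b* had 98.1, 107 and 105 CPM in KO and 108, 129 and 123 CPM in WT (log2 fold change -0.22, adjusted p = 0.0574 from edgeR, and 0.13 with fibroblast marker scaling). In edgeR it passed without WT replicate 1 (-0.29, adjusted p = 0.0188), with the upper quartile (-0.26, adjusted p = 0.0324) and with the replicate number as a block (-0.21, adjusted p = 0.0271). Over the 14 alternatives its adjusted p ran from 0.0188 to 0.175. The paper reports that *Kdm5b* mRNA was nearly absent by Q-PCR in cardiac fibroblasts of knockout mice, while the counts here fell only slightly under TMM. A gene count includes reads outside the deleted bases. Whether such reads account for the difference was not tested. The check thus does not bear out the labels, and the groups are named by them. Totals ran from 12025403 to 15329427 counts in KO and from 14243679 to 14880715 in WT. Between replicates of a label, 13.8% to 16.5% of genes had an unadjusted p under 0.05 when tested against counting noise. Counting noise alone would put a share of about 0.05 of genes under this threshold. These percentages are therefore not the share of genes that differ by more than counting noise.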

How the data were processed

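RNA-seq libraries were prepared from cardiac fibroblasts with a stranded kit and sequenced in paired ends. The authors mapped reads to mm10 (GRCm38.p4) with HISAT2, and edgeR is also named in the submitters' processing notes. The counting tool, annotation release and strand setting are not given in the sources used here. The deposited counts are whole numbers per gene, not normalized. The deposited FPKM values equal these counts divided by a length per gene and a factor per library.

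Differences between the labels come from edgeR's quasi-likelihood test (version 4.0.16, R 4.3.3) on the counts of all 6 libraries, with no covariate, after filterByExpr and TMM, with Benjamini-Hochberg adjustment over 14084 genes. Standard errors and 95% intervals come from the quasi-likelihood F statistic. Shares and ratios were compared with exact permutation tests. The members, lists and alternatives were chosen with earlier results of these data known. Named genes were all members, *Kdm5b*, *Col1a1*, *Col1a2* and *Col3a1*, in each list those among the 3 with the highest FPKM or the 3 called genes with the largest change, and the 3 genes most like the members' pattern. Alternatives were other filters, DESeq2 1.42.0, limma 3.58.1 on log2(FPKM + 1) or log2(FPKM + 0.1), other scalings, the replicate block and each library left out. On simulated data for this comparison (14084 genes), edgeR called 57 of 98 genes changed 1.5-fold and 87 of 102 changed 2-fold, with 14 false calls among 158. Smaller changes were not simulated. The simulation changed few genes, in both directions at random, while in the data 12.5% of genes were called lower and 17.7% higher. These rates may therefore not hold for the data. Gene models of all 10 members are the same in GENCODE vM21. Figures were drawn with matplotlib 3.10.9.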

Additional observations from a re-analysis of the deposited data

How the results depend on the processing

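The count of 5 members called lower was 5 with a mean CPM of at least 1 (12.9% of all genes called lower), 5 with no filter (8.04%) and with DESeq2 (10.1%), with 4 of them shared in each of the latter, 6 with the upper quartile (16.1%), 3 with library size only (10.1%), 2 in both limma fits (9.99% and 9.84%) and 0 under both marker scalings (0.469% and 0.284%). Leaving out 1 library gave 2 to 4 (7.92% to 11.2%), of which 2 or 3 were shared with the main fit. The count called higher, 0, became 1 with library size only (19.4% of all genes higher) and in both limma fits (18.7% and 18.8%), 2 with fibroblast and 6 with cardiomyocyte and macrophage marker scaling, which called 51.3% and 61.0% of all genes higher. The median of -0.26 ran from -0.27 to -0.20 with 1 library left out, and was 0.093 and 0.15 under the marker scalings. Fibroblast marker scaling reversed *P4ha1* (0.072), *P4ha2* (0.18), *P4hb* (0.33), *Plod2* (0.074), *Plod3* (0.11), *P3h1* (0.012) and *P3h2* (0.24). Cardiomyocyte and macrophage marker scaling reversed these (0.13, 0.24, 0.39, 0.13, 0.17, 0.081 and 0.30) and *P4ha3* (0.035). These scalings raise all genes alike by construction. *P4hb*, at -0.02, was 0.019 with library size only, 0.0184 and 0.0185 in the limma fits, and from -0.0265 to 0.0044 with 1 library left out. The ratio of lysyl oxidases to collagen chains, 0.03, was 0.39 as a mean of log2(FPKM + 1). With the replicate number as a block, 5 members were called lower, the same 5 genes (11.3% of all genes), the median was -0.25, and *Kdm5b* passed the threshold (-0.21, adjusted p = 0.0271). Same-numbered libraries deviated together only weakly (correlations 0.0168, 0.0172 and 0.0307), though each KO library correlated best with its own number, and the labels do not say that the numbers pair the mice. With 3 libraries per label the 95% intervals given set the precision.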
